A study of Mus musculus with 4 samples.

Results

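Skin under repeated oxazolone challenge was compared at day 16 and at day 10 by droplet single-cell RNA sequencing, with 1 library at each time. All called barcodes of both libraries were taken, a barcode being a droplet with at least 300 detected genes and at most 15% of its unique molecular identifiers (UMIs, each counting 1 captured RNA molecule) from mitochondrial genes. This gave 16210 of the 27755 called barcodes of the series, 7909 from oxazolone day 16 and 8301 from oxazolone day 10. Both groups were female C57BL/6J mice aged 6 to 8 weeks, and each library pooled neck and ear skin of 3 mice. In both groups the mice were sensitised with 100 µl of 3% oxazolone in an acetone and mineral oil mixture and, beginning 7 days later, received 100 µl of 1.0% oxazolone every other day, and they differed in the day of harvest. Skin was digested with a tissue dissociation kit and collagenase, dead cells were removed in 2 rounds, and libraries were of the 10x Chromium 3′ v3.1 type. The mice within a pool could not be told apart, no vehicle-treated library was analysed here, and with 1 library at each time there is no replicate spread, so no test was made. The called barcodes held 107600323 UMIs at day 16 and 118864274 at day 10, with medians per barcode of 9064 UMIs and 1774 genes at day 16 and 11597 UMIs and 3246 genes at day 10. File headers name Cell Ranger 8.0.0 for the day 16 library and 7.2.0 for the day 10 library, so the software version and the day cannot be told apart. The libraries shared 14 barcode sequences, 0.171% of the deposited day 16 barcodes and 0.161% of those of day 10.

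Oxazolone is a hapten, a small reactive molecule that binds skin proteins and makes them visible to T cells. A first exposure primes T cells in the draining lymph nodes, and each later exposure recalls them to the skin, where they release cytokines onto keratinocytes, fibroblasts, vessels and resident macrophages. Single challenges give a contact hypersensitivity reaction rich in interferon-γ and interleukin-17, and repeated challenges are widely used as a mouse model of atopic dermatitis, in which type 2 cytokines such as interleukin-4 and interleukin-13 gain weight. Neutrophils are drawn in by chemokines of the Cxcl1, Cxcl2, Cxcl3 and Cxcl5 group and by G-CSF (Csf3), monocytes by Ccl2 and Ccl7, and eosinophils by the eotaxins Ccl11 and Ccl24. Under interleukin-4 and interleukin-13, macrophages switch on Arg1, Chil3, Retnla and Mrc1, a programme called alternative activation.

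Barcodes were assigned to 17 marker gates of 6 genes each. A barcode joined the gate with the most detected markers where at least 3 were present and the next gate had at least 2 fewer, and it was otherwise left ungated. Within a gate the UMIs of each gene were summed over barcodes and scaled to the gate's total as CPM. A gene was measured where both libraries together held at least 30 UMIs, and a difference was counted where it was at least 2-fold, which is 1 on the log2 scale. Ratios are day 16 over day 10, and all intervals are exact 95% intervals that cover counting error only, not differences between mice, pools or libraries. Some leading genes of the gates were their own markers, which follows from the gating: S100a9, Cd3g, Cd3e, Pdgfra, Krt14, Krt5, Cdh5 and Emcn. Leading genes outside the marker sets, in both libraries, included Retnlg in the neutrophil gate and Mrc1, C1qb and Cd163 in the macrophage or monocyte gate. They also included Svep1 in the fibroblast gate, Krt15 and Trp63 in the keratinocyte gate and Ptprb in the endothelial gate. In the T cell gate such genes included Icos and Cxcr6 at day 16 and Themis and Cd6 at day 10.

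Promoters of 6 chemokine, NF-kB feedback and hypoxia-response genes that recur below are shown first. Each is the stretch of 120 bases that ends just before the RefSeq transcription start (build GRCm38.p6, mm10), written 5′ to 3′ on the gene's strand. Capitals mark the longest run that the RefSeq windows of these 4 genes share before the start, on either strand, GGGAATTTCC, which has the form of a kappa B site, the DNA letters bound by NF-kB dimers:
Cxcl1: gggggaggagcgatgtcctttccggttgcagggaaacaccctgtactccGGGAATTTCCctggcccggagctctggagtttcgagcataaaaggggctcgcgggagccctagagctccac
Cxcl2: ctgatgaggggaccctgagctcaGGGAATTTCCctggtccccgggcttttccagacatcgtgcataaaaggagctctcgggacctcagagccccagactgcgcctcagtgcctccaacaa
Cxcl3: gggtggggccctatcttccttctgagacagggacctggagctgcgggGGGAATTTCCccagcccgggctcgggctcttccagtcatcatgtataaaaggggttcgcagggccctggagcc
Nfkbia: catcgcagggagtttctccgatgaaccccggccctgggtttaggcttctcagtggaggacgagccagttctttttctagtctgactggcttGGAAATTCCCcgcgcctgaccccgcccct
The first is at chr5:90891125-90891244 (plus strand), the second at chr5:90903779-90903898 (plus strand) and the third at chr5:90785981-90786100 (plus strand), all within the chemokine cluster of that chromosome, and Nfkbia, whose product IκBα holds NF-kB in the cytoplasm, is at chr12:55492648-55492767 (minus strand). The run was taken from these promoters, so its presence in all 4 is not a finding. It begins 71 bases before the start in Cxcl1, 97 in Cxcl2, 73 in Cxcl3 and 29 in Nfkbia. Searched on both strands, these 10 letters were in 29 of 32851 RefSeq windows of 300 bases (0.0883%). Of the 7 matched genes of the neutrophil chemoattractant list, only the printed Cxcl1, Cxcl2 and Cxcl3 held them. Of the 11 of the NF-kB target list, only the printed Nfkbia did. These list counts follow from the choice of the run and say nothing of enrichment.

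The second set shows the core letters ACGTG of the hypoxia response element, in capitals, in Bnip3, a mitochondrial protein of hypoxia-driven mitophagy, and Hilpda, a lipid droplet protein:
Bnip3: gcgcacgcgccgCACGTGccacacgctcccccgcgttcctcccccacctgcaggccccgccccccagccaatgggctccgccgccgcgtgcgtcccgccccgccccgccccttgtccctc
Hilpda: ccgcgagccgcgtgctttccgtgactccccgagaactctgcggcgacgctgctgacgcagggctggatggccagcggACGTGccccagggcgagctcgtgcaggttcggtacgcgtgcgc
The Bnip3 stretch is at chr7:138909507-138909626 (minus strand) and holds the core on both strands in overlap, which makes the capitals 1 base longer than the core, and the Hilpda stretch is at chr6:29272506-29272625 (plus strand). The core begins 108 bases before the start in Bnip3 and 43 bases before it in Hilpda. The core was in 5886 of 27025 genes with a RefSeq window (21.8%) and in 14 of the 17 matched genes of the glycolysis and hypoxia list (82.4%). A gene with several windows was counted where any of them held the core. By window, the core was in 6447 of 32851 (19.6%) and in 16 of the 27 of the list (59.3%). A match describes the letters of the window and says nothing of whether the site was bound.

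Neutrophils made up most of the called barcodes at day 16, and keratinocytes a far smaller share than at day 10. The neutrophil gate held 4169 barcodes at day 16 (52.7%, 95% interval 51.6 to 53.8), against 1727 at day 10 (20.8%, 19.9 to 21.7). The keratinocyte gate held 108 barcodes at day 16 (1.37%, 95% interval 1.12 to 1.65), against 1352 at day 10 (16.3%, 15.5 to 17.1). Fibroblasts, the matrix-making cells of the dermis, held 425 barcodes at day 16 (5.37%, 95% interval 4.89 to 5.89), against 709 at day 10 (8.54%, 7.95 to 9.16). Endothelial cells, which line the vessels, held 103 barcodes at day 16 (1.3%, 95% interval 1.06 to 1.58), against 130 at day 10 (1.57%, 1.31 to 1.86), so these 2 intervals overlapped.

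Other structural cells also took smaller shares of all called barcodes at day 16. Mural cells, which wrap small vessels, held 38 barcodes at day 16 (0.48%, 95% interval 0.34 to 0.659), against 196 at day 10 (2.36%, 2.05 to 2.71). Chondrocytes, from the ear cartilage, held 38 barcodes at day 16 (0.48%, 95% interval 0.34 to 0.659), against 212 at day 10 (2.55%, 2.23 to 2.92). Melanocytes, the pigment cells, held 8 barcodes at day 16 (0.101%, 95% interval 0.0437 to 0.199), against 67 at day 10 (0.807%, 0.626 to 1.02). Schwann cells, which ensheath nerves, held 36 barcodes at day 16 (0.455%, 95% interval 0.319 to 0.63), against 120 at day 10 (1.45%, 1.2 to 1.73). All 8 non-immune gates held 757 barcodes at day 16 and 2786 at day 10, and among them fibroblasts took 56.1% at day 16 and 25.4% at day 10, and keratinocytes 14.3% at day 16 and 48.5% at day 10. On that base Schwann cells took 4.76% at day 16 and 4.31% at day 10, so their order turned with the denominator. How much of each skin layer the digestion released was not measured, so its part in these shares was not tested.

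Among leukocytes, macrophages or monocytes held 1069 barcodes at day 16 (13.5%, 95% interval 12.8 to 14.3), against 1584 at day 10 (19.1%, 18.2 to 19.9). T cells held 312 barcodes at day 16 (3.94%, 95% interval 3.53 to 4.4), against 336 at day 10 (4.05%, 3.63 to 4.49). Both orders depend on the denominator: of barcodes outside the neutrophil gate, macrophages or monocytes took 28.6% at day 16 and 24.1% at day 10, and T cells 8.34% at day 16 and 5.11% at day 10. NK cells, innate killer lymphocytes, held 10 barcodes at day 16 (0.126%, 95% interval 0.0606 to 0.232), against 68 at day 10 (0.819%, 0.637 to 1.04), and basophils, circulating granulocytes that release interleukin-4, held 25 barcodes at day 16 (0.316%, 95% interval 0.205 to 0.466), against 67 at day 10 (0.807%, 0.626 to 1.02). No barcode passed the eosinophil gate in either library, which allows a share of up to 0.0466% at day 16 and 0.0444% at day 10. Ungated barcodes were 19.3% at day 16 and 20.2% at day 10. The gates are ranges of a marker score: 11.5% at day 16 and 12.3% at day 10 of neutrophil-gated barcodes lay at the smallest accepted score, 39.7% at day 16 and 23.5% at day 10 of macrophages or monocytes, 24% at day 16 and 25.6% at day 10 of T cells, 26.1% at day 16 and 28.5% at day 10 of fibroblasts and 12% at day 16 and 9.39% at day 10 of keratinocytes. Of basophils, 40% at day 16 and 34.3% at day 10 lay there. Whether barcodes outside that gate were basophils was not tested.

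**Figure D1:**
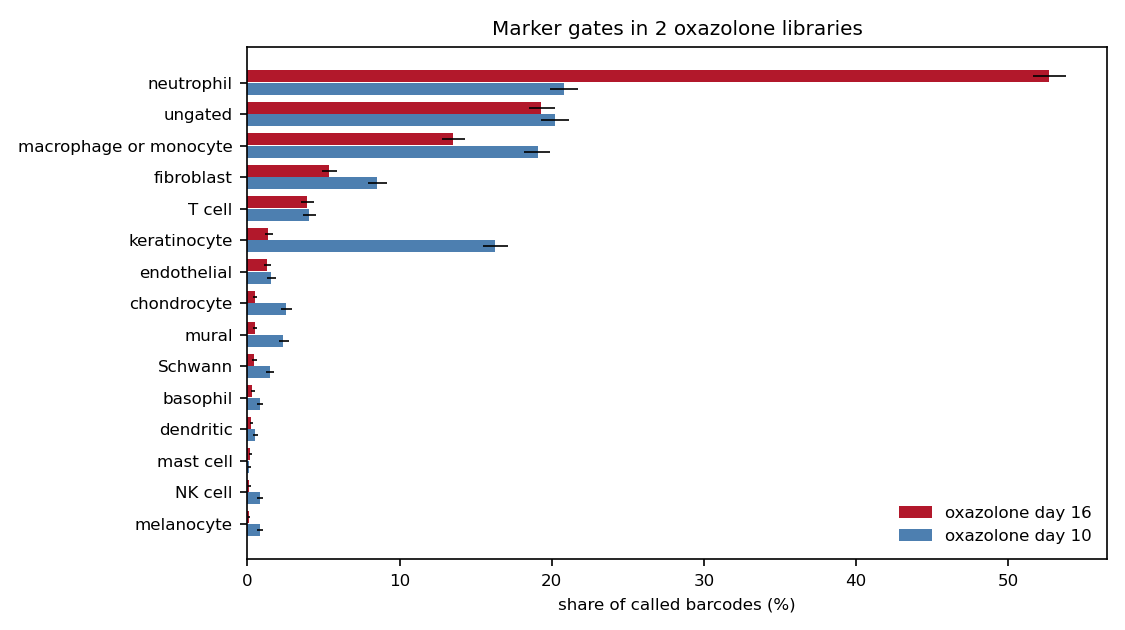
Share of called barcodes in each marker gate (x axis, %) in the oxazolone day 16 (red, upper bar) and oxazolone day 10 (blue, lower bar) libraries, with exact 95% binomial intervals; gates with fewer than 20 barcodes in both libraries together are not drawn. The neutrophil bar reaches 52.7% at day 16 and 20.8% at day 10, and the keratinocyte bar 1.37% at day 16 and 16.3% at day 10.

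Neutrophils of day 16 carried far more transcript of inflammatory chemokines and cytokines. Of the 12625 genes measured in the gate, 9.73% were higher by 2-fold or more and 32.8% lower by as much at day 16, and the median gene was at a log2 ratio of -0.60. With that median set to 0, 2346 genes were past 2-fold higher and 1609 lower, against 1229 and 4135 without the shift. Of the neutrophil chemoattractant list, 5 of 6 measured members (of 9 listed) were higher at day 16 by 2-fold or more and 0 lower, with a median log2 ratio of 1.86. Cxcl2, a CXCR2 ligand that draws further neutrophils, had 27284 CPM at day 16, against 7701 CPM at day 10 (log2 ratio 1.82, 95% interval 1.81 to 1.84). Cxcl3, of the same group, had 1750 CPM at day 16 and 472 CPM at day 10 (log2 ratio 1.89). Both genes carry the kappa B letters printed above, whose part in these ratios, and in those of the gates below, was not tested. Of the monocyte-attracting chemokines, 5 of 8 measured members (of 8 listed) were higher at day 16 by 2-fold or more and 0 lower, with a median log2 ratio of 2.75. Ccl3 had 4023 CPM at day 16, against 354 CPM at day 10 (log2 ratio 3.51, 95% interval 3.46 to 3.56). Ccl4 had 7713 CPM at day 16 and 1203 CPM at day 10 (log2 ratio 2.68). These were the 2 members of this list past 2-fold whose level in neutrophils was not under 5% of that in another gate, a share set after the values were seen, to mark levels that RNA from other cells could give. Of the neutrophil chemoattractant members higher by 2-fold or more, 3 were not under that 5%.

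Interleukin-1 family genes were higher, with 5 of 6 measured members at least 2-fold higher and a median log2 ratio of 2.06. Il1a, an alarm cytokine, had 685 CPM at day 16, against 45 CPM at day 10 (log2 ratio 3.93, 95% interval 3.79 to 4.07). Il1b, its inflammasome-processed relative, had 5854 CPM at day 16 and 2162 CPM at day 10 (log2 ratio 1.44). Il1rn, the secreted antagonist of both at the interleukin-1 receptor, had 2661 CPM at day 16 and 312 CPM at day 10 (log2 ratio 3.09), so agonists and antagonist were higher together. After thinning each barcode to 3000 UMIs, which evens out depth, and leaving out 335 shallower barcodes at day 16 and 221 at day 10, Il1a was seen in 49% of 3834 barcodes at day 16 (95% interval 47.4 to 50.6) and 5.78% of 1506 at day 10 (4.65 to 7.08), where fibroblasts, read the same way, gave 1.03% at day 16 and 0% at day 10. Unthinned, the shares in neutrophils were 59.1% at day 16 and 7.18% at day 10. Il18, an interferon-γ inducing cytokine, had 33.2 CPM at day 16 and 44.4 CPM at day 10 (log2 ratio -0.42) and was the 1 measured member not past 2-fold.

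Of 15 measured effector and survival genes 3 were higher and 1 lower, and of 11 trafficking genes 2 were higher and 2 lower. Cd274 encodes PD-L1, the checkpoint ligand, and had 2427 CPM at day 16, against 311 CPM at day 10 (log2 ratio 2.96, 95% interval 2.91 to 3.02). After thinning it was seen in 87.1% of 3834 barcodes at day 16 (95% interval 86 to 88.2) and 34.5% of 1506 at day 10 (32.1 to 37). The shares were 6.72% at day 16 and 1.76% at day 10 in fibroblasts, read the same way, and 92.6% at day 16 and 42% at day 10 before thinning. Ccrl2, a chemerin-binding receptor, had 1240 CPM at day 16 and 154 CPM at day 10 (log2 ratio 3.01). Icam1, an adhesion molecule, had 233 CPM at day 16 and 38.6 CPM at day 10 (log2 ratio 2.59). All 3 were higher in the day 16 library, as was Fasl, the death ligand, at 17.3 CPM at day 16 and 0.733 CPM at day 10 (log2 ratio 4.57). Of the NF-kB targets, 10 of 14 measured members (of 14 listed) were higher at day 16 by 2-fold or more and 0 lower, with a median log2 ratio of 1.27, and Nfkbia, whose promoter holds the kappa B letters, had 2830 CPM at day 16 and 1099 CPM at day 10 (log2 ratio 1.37). Of the interferon-stimulated genes, 10 of 16 measured members (of 18 listed) were higher at day 16 by 2-fold or more and 0 lower, with a median log2 ratio of 1.05. Cxcl10, a CXCR3 ligand that draws T cells, had 177 CPM at day 16 and 15.8 CPM at day 10 (log2 ratio 3.49). Gbp2, a guanylate-binding protein of antimicrobial defence, had 1067 CPM at day 16 and 189 CPM at day 10 (log2 ratio 2.50). Tnf had 598 CPM at day 16 and 91.5 CPM at day 10 (log2 ratio 2.71), and Tnfsf13b, the B cell factor BAFF, went the other way with 6.85 CPM at day 16 and 31.3 CPM at day 10 (log2 ratio -2.19).

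Prostaglandin and leukotriene genes split. Ptgs2, the inducible cyclooxygenase, had 1807 CPM at day 16 and 422 CPM at day 10 (log2 ratio 2.10), and Ptges, the prostaglandin E synthase, 37.3 CPM at day 16 and 6.07 CPM at day 10 (log2 ratio 2.62). Alox5, the enzyme that begins leukotriene synthesis, had 32.7 CPM at day 16, against 122 CPM at day 10 (log2 ratio -1.90, 95% interval -2.02 to -1.78). Its partner Alox5ap had 589 CPM at day 16 and 1268 CPM at day 10 (log2 ratio -1.11). Lta4h, which makes leukotriene B4, had 9.11 CPM at day 16 and 21.7 CPM at day 10 (log2 ratio -1.25). Across the lipid mediator list 3 of 13 measured members were higher by 2-fold or more and 7 lower. With the gate's median set to 0 the counts were 3 higher and 2 lower.

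Granule genes as a list lay close to the gate as a whole. Of the 13 measured genes of secondary and tertiary granules, 0 were higher by 2-fold or more and 5 at least 2-fold lower, with a median log2 ratio of -0.44, which is above the gate's median of -0.60. Centred on that median, the counts were 1 higher and 3 lower. Retnlg, a resistin-like protein of mature neutrophils, had 4073 CPM at day 16, against 12521 CPM at day 10 (log2 ratio -1.62, 95% interval -1.63 to -1.61). Camp, the antimicrobial peptide CRAMP, had 36.6 CPM at day 16 and 150 CPM at day 10 (log2 ratio -2.04). Mmp8, neutrophil collagenase, had 502 CPM at day 16 and 1275 CPM at day 10 (log2 ratio -1.34). Ngp and Cd177, also granule-linked, were near level, at log2 ratios of -0.01 and -0.04. Itga4, the VLA-4 integrin chain, had 11.7 CPM at day 16 and 61.4 CPM at day 10 (log2 ratio -2.40). Selplg, the P-selectin ligand, had 206 CPM at day 16 and 474 CPM at day 10 (log2 ratio -1.20). The 5 lowest ratios among genes with at least 200 UMIs were those of P2ry12, an ADP receptor, Rab23, Ccnjl, Ftsj1 and Chsy1, between -3.85 and -3.53.

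By size of ratio, the 5 highest genes of the gate were Mmp13, Ccl24, Lsmem1, Mmp12 and Nrcam. Lsmem1, a little-studied membrane protein gene, had 365 CPM at day 16, against 11.1 CPM at day 10 (log2 ratio 5.04, 95% interval 4.76 to 5.33), which at day 10 was 269% and at day 16 304% of the level in the highest other gate. Mmp13, Ccl24 and Mmp12 were at 4.54%, 1.57% and 6.16% of the macrophage gate's level at day 16. Nrcam was at 1.9% of the Schwann gate's. Macrophage markers summed to 108 CPM at day 16 and 95.8 CPM at day 10 within the neutrophil gate. Whether free RNA from other cells gives those last 4 ratios was not tested. Neutrophils had few ribosomal protein transcripts, 1.03% of UMIs at day 16 and 2.11% at day 10, and mitochondrial UMIs were 0.426% at day 16 and 0.511% at day 10.

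Macrophages or monocytes of day 16 were marked by alternative activation, monocyte chemokines and hypoxia-response genes, and by lower transcript levels of MHC class II genes. Of the 13035 genes measured in the gate, 5.75% were higher by 2-fold or more and 22.7% lower by as much at day 16, and the median gene was at a log2 ratio of -0.42. With that median set to 0, 1310 genes were past 2-fold higher and 1645 lower, against 750 and 2962 without the shift. Of the alternative activation list, 11 of 14 measured members (of 15 listed) were higher at day 16 by 2-fold or more and 0 lower, with a median log2 ratio of 2.26. Arg1, arginase 1, had 6986 CPM at day 16, against 302 CPM at day 10 (log2 ratio 4.53, 95% interval 4.50 to 4.57). Ccl24, eotaxin-2, had 5987 CPM at day 16, against 174 CPM at day 10 (log2 ratio 5.10, 95% interval 5.06 to 5.15). Chil3, a chitinase-like protein, had 3642 CPM at day 16 and 774 CPM at day 10 (log2 ratio 2.23). Each of these 3 was higher in the day 16 library, and, thinned to 3000 UMIs and leaving out 16 shallower barcodes at day 16 and 24 at day 10, Arg1 was seen in 78.3% of 1053 barcodes at day 16 (95% interval 75.7 to 80.8) and 14.4% of 1560 at day 10 (12.7 to 16.3). The shares were 4.95% at day 16 and 0.533% at day 10 in keratinocytes, read the same way, and 89.9% at day 16 and 24.6% at day 10 before thinning. Ccl24 was seen, thinned, in 71.6% of 1053 barcodes at day 16 (95% interval 68.8 to 74.3) and 10.6% of 1560 at day 10 (9.09 to 12.2). The shares were 5.94% at day 16 and 0% at day 10 in keratinocytes, read the same way, and 85.1% at day 16 and 22% at day 10 before thinning. Mrc1, the mannose receptor CD206, had 4516 CPM at day 16 and 1680 CPM at day 10 (log2 ratio 1.43). Retnla had 93.1 CPM at day 16 and 10.5 CPM at day 10 (log2 ratio 3.14), in few barcodes. Thinned, Retnla was seen in 3.23% of 1053 barcodes at day 16 (95% interval 2.25 to 4.48) and 0.449% of 1560 at day 10 (0.181 to 0.922). Clec10a and Mgl2, a pair of C-type lectins often used as markers of the same programme, were not past 2-fold, with log2 ratios of 0.04 and -0.27.

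Classical activation genes were also higher in part, with 6 of 12 measured members at least 2-fold higher and 1 lower. Nos2, inducible nitric oxide synthase, had 110 CPM at day 16 and 11.8 CPM at day 10 (log2 ratio 3.22). Ptgs2 had 1059 CPM at day 16, against 44.8 CPM at day 10 (log2 ratio 4.56, 95% interval 4.47 to 4.66). Il6 had 15.3 CPM at day 16 and 1.59 CPM at day 10 (log2 ratio 3.27), which at day 16 was 0.394% of the level in the basophil gate. Cxcl9, an interferon-γ induced T cell chemokine, had 89.2 CPM at day 16 and 183 CPM at day 10 (log2 ratio -1.04) and was the member past 2-fold lower. Interferon-stimulated genes as a list had a median of -0.32, with 2 of 17 higher and 4 lower. In neutrophils the same list had a median of 1.05, and the difference between the gates was not tested.

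Chemokines for monocytes and neutrophils were higher. Ccl2 had 2760 CPM at day 16, against 108 CPM at day 10 (log2 ratio 4.67, 95% interval 4.61 to 4.73). Ccl7, a second CCR2 ligand, had 2027 CPM at day 16 and 73.1 CPM at day 10 (log2 ratio 4.79). Cxcl3 had 843 CPM at day 16, against 17.1 CPM at day 10 (log2 ratio 5.62, 95% interval 5.47 to 5.77), and Cxcl1 72.7 CPM at day 16 and 2.54 CPM at day 10 (log2 ratio 4.84). Nfkbia, which shares the kappa B letters with both, had 1652 CPM at day 16 and 270 CPM at day 10 (log2 ratio 2.61). The monocyte-attracting list had 7 of 8 measured members higher, of which 5 stayed above the 5% level relative to other gates. Il1a had the highest ratio among genes with at least 200 UMIs, 96.3 CPM at day 16 and 1.18 CPM at day 10 (log2 ratio 6.35), at 14.1% of the neutrophil level at day 16. Cxcl2 had 3718 CPM at day 16 and 347 CPM at day 10 (log2 ratio 3.42), at 13.6% of the neutrophil level at day 16. Neutrophil markers summed to 565 CPM at day 16 and 278 CPM at day 10 within the macrophage gate, and their part in Il1a and Cxcl2 was not tested.

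Of the epidermal growth factor receptor ligands 3 of 4 measured members were higher, and the other had a log2 ratio of -0.96. Hbegf had 416 CPM at day 16, against 18.6 CPM at day 10 (log2 ratio 4.48, 95% interval 4.34 to 4.63). Areg, amphiregulin, had 108 CPM at day 16 and 3.17 CPM at day 10 (log2 ratio 5.09). Thinned to 3000 UMIs, Areg was seen in 8.74% of 1053 barcodes at day 16 and 0.385% of 1560 at day 10. At day 16 97.2% of Areg UMIs lay in the 10% of barcodes with most. Spp1, osteopontin, had 1894 CPM at day 16, against 96.1 CPM at day 10 (log2 ratio 4.30, 95% interval 4.24 to 4.36). Fn1, fibronectin, had 1302 CPM at day 16 and 199 CPM at day 10 (log2 ratio 2.71). Vegfa, the vascular growth factor, had 148 CPM at day 16 and 23.9 CPM at day 10 (log2 ratio 2.63). Each of these 5 genes was higher at day 16. Lipid-handling and lysosome genes had 10 of 15 measured members higher, among them the scavenger receptor Cd36 with 319 CPM at day 16 and 64.5 CPM at day 10 (log2 ratio 2.31) and the protease Ctsl with 2375 CPM at day 16 and 585 CPM at day 10 (log2 ratio 2.02), whereas Trem2, a lipid-sensing receptor, had 54.9 CPM at day 16 and 62.2 CPM at day 10 (log2 ratio -0.18).

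Glycolysis and hypoxia genes were higher in macrophages, where 15 of 20 measured members (of 20 listed) were higher at day 16 by 2-fold or more and 0 lower, with a median log2 ratio of 1.31. Hilpda had 455 CPM at day 16, against 36.6 CPM at day 10 (log2 ratio 3.64, 95% interval 3.53 to 3.74). Bnip3 had 207 CPM at day 16, against 36.7 CPM at day 10 (log2 ratio 2.50, 95% interval 2.39 to 2.61). Egln3, an oxygen-sensing prolyl hydroxylase, had 45.8 CPM at day 16 and 3.45 CPM at day 10 (log2 ratio 3.73). The glycolytic enzymes Pgk1 and Ldha had 432 CPM at day 16 and 106 CPM at day 10 (log2 ratio 2.03) and 413 CPM at day 16 and 177 CPM at day 10 (log2 ratio 1.22). The glucose transporter Slc2a1 had 158 CPM at day 16 and 57.2 CPM at day 10 (log2 ratio 1.46), and Slc2a3, a second transporter, was the measured member furthest the other way, with 4.53 CPM at day 16 and 8.21 CPM at day 10 (log2 ratio -0.86) at under 2% of the level in another gate. Over the same list the median was 0.38 in neutrophils, 0.19 in T cells, 0.27 in fibroblasts and 0.05 in endothelial cells, differences between gates that were not tested.

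MHC class II genes, which present peptides to CD4 T cells, were lower, in 7 of 8 measured members. Ciita, their master transactivator, had 10.3 CPM at day 16, against 107 CPM at day 10 (log2 ratio -3.37, 95% interval -3.57 to -3.18). H2-Eb1 had 414 CPM at day 16 and 2400 CPM at day 10 (log2 ratio -2.53). Cd74, the invariant chain, had 1643 CPM at day 16 and 4618 CPM at day 10 (log2 ratio -1.49). After thinning H2-Aa was seen in 36.7% of 1053 barcodes at day 16 (95% interval 33.7 to 39.6) and 74.9% of 1560 at day 10 (72.6 to 77). The shares were 1.98% at day 16 and 3.5% at day 10 in keratinocytes, read the same way, and 52.2% at day 16 and 83.3% at day 10 before thinning. MHC class I genes did not move with them: 0 of 11 were past 2-fold in the higher direction and 0 in the lower. Dendritic cells, the main class II presenters, were not part of the gate, and dendritic markers summed to 15 CPM at day 16 and 20 CPM at day 10 in it. Median depth per barcode of the gate was 21860 UMIs at day 16 and 13592 at day 10. Genes of resident macrophages had 1 of 13 higher and 3 lower, with the complement genes C1qa at -0.85 and C1qb at -0.66 on the log2 scale. Proliferation genes were lower in 10 of 15 measured members, of which 6 stayed above 5% of the level in another gate.

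The lowest ratios of the gate among genes with at least 200 UMIs were those of Abca6, Dcc, Igfbp3, Robo2 and Zbtb16. Abca6, a lipid transporter, had 0.374 CPM at day 16 and 12.5 CPM at day 10 (log2 ratio -5.07), which at day 10 was 109% of the fibroblast level. Zbtb16, a zinc finger transcription factor induced by glucocorticoid, had 2.62 CPM at day 16 and 36 CPM at day 10 (log2 ratio -3.78), and was also the lowest of the endothelial gate, with 41.9 CPM at day 16 and 301 CPM at day 10 (log2 ratio -2.84). Dcc, Igfbp3 and Robo2 were at 4.77%, 5.44% and 2.49% of the fibroblast level at day 10.

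**Figure D2:**
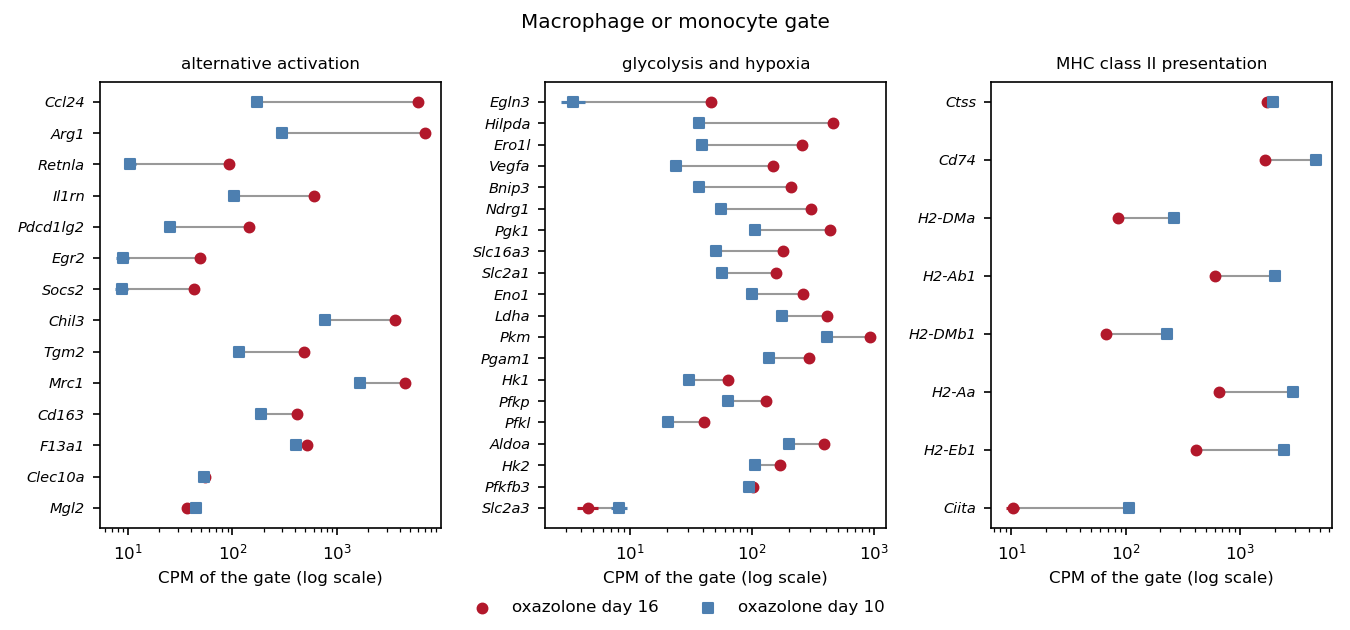
Level of each measured member of 3 lists in the macrophage or monocyte gate (x axis, CPM of the gate, log scale) in the oxazolone day 16 (red circles) and oxazolone day 10 (blue squares) libraries, with exact 95% Poisson intervals as thick bars that are mostly narrower than the symbols. Ccl24 stands at 5987 CPM at day 16 and 174 CPM at day 10 and Arg1 at 6986 CPM at day 16 and 302 CPM at day 10, all 8 class II symbols of day 16 lie left of those of day 10, and Ciita lies at 10.3 CPM at day 16 and 107 CPM at day 10.

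T cells took similar shares of both libraries, but their cytokine genes differed. Of the 10005 genes measured in the gate, 3.16% were higher by 2-fold or more and 14.1% lower by as much at day 16, and the median gene was at a log2 ratio of -0.38. With that median set to 0, 582 genes were past 2-fold higher and 653 lower, against 316 and 1413 without the shift. Il17a, the cytokine that makes stromal cells release neutrophil chemokines, had 221 CPM at day 16, against 6.98 CPM at day 10 (log2 ratio 4.98, 95% interval 4.36 to 5.68). It was seen, thinned to 3000 UMIs and leaving out 8 shallower barcodes at day 16 and 18 at day 10, in 20.7% of 304 barcodes at day 16 (95% interval 16.3 to 25.7) and 1.26% of 318 at day 10 (0.344 to 3.19). The shares were 0.258% at day 16 and 0% at day 10 in fibroblasts, read the same way, and 26.9% at day 16 and 1.49% at day 10 before thinning. Il17f, its close relative, had 149 CPM at day 16 and 7.97 CPM at day 10 (log2 ratio 4.22). Both were higher at day 16. The T cell cytokine list had 3 of 8 measured members higher and 0 lower, the third higher one being Ifng, interferon-γ, with 84.7 CPM at day 16 and 35.5 CPM at day 10 (log2 ratio 1.25). Il4 in T cells had 16.1 CPM at day 16 and 12.3 CPM at day 10 (log2 ratio 0.39) and Il10 had 68 CPM at day 16 and 67.1 CPM at day 10 (log2 ratio 0.02).

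Within the gate, receptor genes split the barcodes into αβ and γδ T cells. γδ T cells were 87 of 312 T cell barcodes at day 16 (27.9%, 95% interval 23 to 33.2) and 37 of 336 at day 10 (11%, 7.87 to 14.9). In these γδ T cells Il17a had 522 UMIs at day 16 and 5 at day 10 (532 CPM, 95% interval 488 to 580, and 16.3 CPM, 5.28 to 37.9), found in 54 of 87 barcodes at day 16 and 2 of 37 at day 10. In αβ T cells it had 87 UMIs at day 16 and 16 at day 10 (39.8 CPM, 95% interval 31.9 to 49.1, and 7.34 CPM, 4.19 to 11.9), and 86.2% of the day 16 UMIs lay in 1 barcode. Barcodes without a clear receptor assignment had 254 UMIs at day 16 and 0 at day 10 (342 CPM, 95% interval 301 to 387, and 0 CPM, 0 to 7.07). Cd163l1, a scavenger receptor of γδ17 cells, had 206 CPM at day 16 and 55.5 CPM at day 10 (log2 ratio 1.89) over the whole gate. It was higher over a gate that held a larger γδ share. In γδ T cells alone Cd163l1 had 574 CPM at day 16 and 390 CPM at day 10, under 2-fold. Barcodes without a clear receptor assignment had 302 CPM of it at day 16 and 47.9 CPM at day 10, and αβ T cells 7.78 and 10.1 CPM.

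A set of genes seen at day 10 was nearly absent at day 16. Olfm3, Kcnma1, Serpine2, Cntn1 and Ctnnd2 had the 5 lowest ratios. Olfm3 had 1 UMI at day 16 and 274 UMIs at day 10 over the gate, and γδ T cells held 0 at day 16 and 163 at day 10. Kcnma1, a potassium channel, had 2 UMIs at day 16 and 364 UMIs at day 10, with 1 at day 16 and 287 at day 10 in γδ T cells. Olfm3 was found in 0 of 87 γδ barcodes at day 16 and 12 of 37 at day 10, and Kcnma1 in 1 of 87 γδ barcodes at day 16 and 17 of 37 at day 10. Serpine2, a protease inhibitor, had 6 UMIs at day 16 and 280 UMIs at day 10, but 99.6% of its 261 γδ UMIs of day 10 lay in 1 barcode. Between the γδ T cells of the 2 days, Il17a was thus higher and Olfm3 and Kcnma1 were lower at day 16.

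A few regulatory genes were lower, while their list was near the gate's median. Foxp3, which defines regulatory T cells, had 29.7 CPM at day 16, against 96.3 CPM at day 10 (log2 ratio -1.70, 95% interval -2.02 to -1.38). Thinned, it was seen in 6.58% of 304 barcodes at day 16 (95% interval 4.06 to 9.98) and 16.4% of 318 at day 10 (12.5 to 20.9). The shares were 0.258% at day 16 and 0.294% at day 10 in fibroblasts, read the same way, and 8.97% at day 16 and 27.1% at day 10 before thinning. In αβ T cells alone Foxp3 was found in 20 of 157 barcodes at day 16 and 65 of 215 at day 10. Ikzf2, which encodes Helios, had 472 CPM at day 16 and 1277 CPM at day 10 (log2 ratio -1.43). Cd4 had 49.1 CPM at day 16 and 119 CPM at day 10 (log2 ratio -1.27). Cd8b1 had 176 CPM at day 16 and 95.7 CPM at day 10 (log2 ratio 0.88), which was not past 2-fold over the gate. In αβ T cells alone Cd8b1 had 285 CPM at day 16 and 119 CPM at day 10, past 2-fold. It was found there in 103 of 157 barcodes at day 16 and 67 of 215 at day 10. Cd4 in αβ T cells had 75.9 CPM at day 16 and 136 CPM at day 10, under 2-fold. Lef1, of naive and central memory cells, had 70.6 CPM at day 16 and 180 CPM at day 10 (log2 ratio -1.35) over the gate. In αβ T cells alone it had 117 CPM at day 16 and 155 CPM at day 10, under 2-fold. Il2ra and Ctla4, which activated cells also express, were near level, at log2 ratios of -0.06 and -0.36. Across the regulation and checkpoint list 0 of 15 measured members were higher and 3 lower, with a median of -0.36 beside -0.38 over all genes of the gate. With the gate's median set to 0 the counts were 2 higher and 3 lower.

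Cytotoxic genes were higher in αβ T cells, in 5 of 8 measured members with 0 lower and a median of 1.09. Among all genes measured in αβ T cells 2.57% were higher and 11.2% lower, with a median of -0.29. Over the whole T cell gate, 1 of 8 were higher and 1 lower. Gzma, granzyme A, led the T cell gate at day 16 by ratio to other gates, but it was a marker of the NK gate and was left out of the ratios. In αβ T cells it had 5913 UMIs at day 16 and 301 at day 10 (2705 CPM, 95% interval 2636 to 2775, and 138 CPM, 123 to 155), in 89 of 157 barcodes at day 16 and 29 of 215 at day 10. Over the whole gate Gzmk had 23 CPM at day 16 and 5.98 CPM at day 10 (log2 ratio 1.94). Gzmc had 7.67 CPM at day 16 and 29.6 CPM at day 10 (log2 ratio -1.95). Gzmb had 520 CPM at day 16 and 306 CPM at day 10 (log2 ratio 0.77). Il22, an interleukin-10 family cytokine that acts on keratinocytes, had 53 UMIs at day 16 and 0 at day 10 in αβ T cells and 4 at day 16 and 25 at day 10 in γδ T cells. Of the αβ UMIs of day 16, 84.9% lay in 1 barcode, and the γδ UMIs came from 1 barcode at day 16 and 1 at day 10.

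Several myeloid genes were past 2-fold in T cells at levels that other gates could supply. All 4 measured interleukin-1 family members and 4 of 7 monocyte-attracting chemokines were higher, and of these 0 and 0 stayed above 5% of the level in another gate. Cxcl2, for example, had 359 CPM at day 16 and 34.9 CPM at day 10 (log2 ratio 3.36), 1.31% of the neutrophil level at day 16, and Il1b turned to a log2 ratio of -0.65 once a free RNA profile worth 5% of the gate was taken off. Neutrophil markers summed to 598 CPM at day 16 and 145 CPM at day 10 within the T cell gate, and their part in these ratios was not tested. MHC class II genes had a median of 1.09 in T cells, with Cd74 at 407 CPM at day 16 and 185 CPM at day 10 (log2 ratio 1.14), 4 of the 8 measured members stood at 5% or more of the level in another gate, and the median was -0.65 when the barcodes most like doublets, by Scrublet score, were left out.

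Interleukin-4 transcript was higher in the whole library, 3963 UMIs at day 16 and 324 at day 10. Ungated barcodes held 62.8% at day 16 and 30.2% at day 10 of it and the basophil gate 28.5% at day 16 and 47.8% at day 10. The basophil gate was small, so its genes, chosen after their values were seen, are given as levels. Il4 had 1129 UMIs at day 16 and 155 at day 10 (5426 CPM, 95% interval 5114 to 5752, and 395 CPM, 335 to 462), found in 23 of 25 barcodes at day 16 and 42 of 67 at day 10, and 1 barcode held 38.3% of the day 16 UMIs. Il13 had 103 UMIs at day 16 and 9 at day 10 (495 CPM, 95% interval 404 to 600, and 22.9 CPM, 10.5 to 43.5), with 69.9% of the day 16 UMIs in 1 barcode. Il6 had 809 UMIs at day 16 and 192 at day 10 (3888 CPM, 95% interval 3625 to 4165, and 489 CPM, 422 to 563), with 43.1% of the day 16 UMIs in 1 barcode. Each of the 3 cytokines was found in a larger share of basophil barcodes at day 16, without thinning, and the gate held fewer barcodes then. The basophil markers Mcpt8, Cd200r3 and Ms4a2 had 7809, 841 and 341 CPM at day 16, against 4510, 1599 and 751 CPM at day 10.

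**Figure D3:**
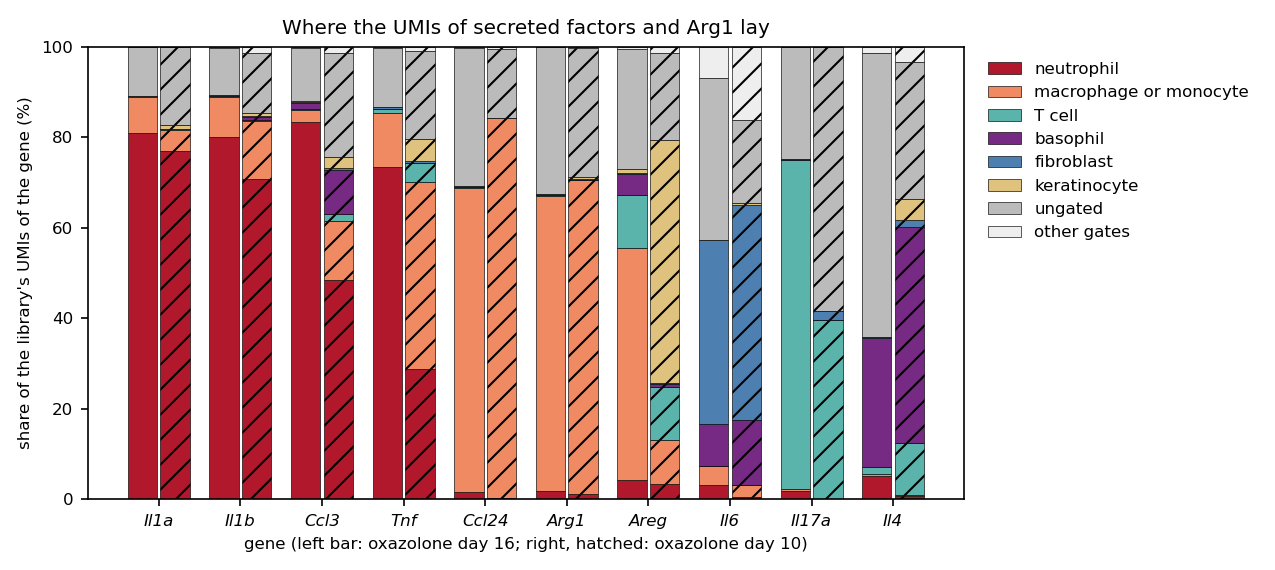
Share of each library's UMIs of a gene that lay in each gate (y axis, %), for 9 secreted factors and Arg1, with oxazolone day 16 as the left, plain bar and oxazolone day 10 as the right, hatched bar of each pair. Neutrophils hold 73.5% of Tnf UMIs at day 16 and 28.8% at day 10, and Areg lies mostly in macrophages or monocytes at day 16 (51.2%) and mostly in keratinocytes at day 10 (53.8%).

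Where a factor's UMIs lay is set by cell number, RNA per cell and expression together. Neutrophils held 83.5% at day 16 and 48.5% at day 10 of Ccl3 UMIs and 73.5% at day 16 and 28.8% at day 10 of Tnf UMIs. Macrophages or monocytes held 67.4% at day 16 and 84.1% at day 10 of Ccl24. Fibroblasts held 40.6% at day 16 and 47.6% at day 10 of Il6 and 81.6% at day 16 and 72.2% at day 10 of Ccl11. T cells held 72.7% at day 16 and 39.6% at day 10 of Il17a, nearly all the rest being ungated. Areg lay mainly in different gates, with macrophages or monocytes holding 51.2% at day 16 and 9.75% at day 10 and keratinocytes 0.848% at day 16 and 53.8% at day 10.

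Fibroblasts of day 16 carried more transcript of chemokines, Il6 and interferon-stimulated genes, while their matrix genes were level. Of the 14091 genes measured in the gate, 3.68% were higher by 2-fold or more and 10.6% lower by as much at day 16, and the median gene was at a log2 ratio of -0.19. With that median set to 0, 721 genes were past 2-fold higher and 1095 lower, against 518 and 1487 without the shift. Of the fibroblast inflammatory cytokine list, 12 of 18 measured members (of 19 listed) were higher at day 16 by 2-fold or more and 0 lower, with a median log2 ratio of 1.32. Cxcl13, a B cell chemokine, had 345 CPM at day 16, against 31.4 CPM at day 10 (log2 ratio 3.46, 95% interval 3.33 to 3.59). Il6 had 250 CPM at day 16, against 38.6 CPM at day 10 (log2 ratio 2.70, 95% interval 2.58 to 2.82). Cxcl1, whose promoter is printed above, had 463 CPM at day 16, against 98.1 CPM at day 10 (log2 ratio 2.24, 95% interval 2.16 to 2.32). Ccl11, eotaxin-1, had 228 CPM at day 16 and 61.4 CPM at day 10 (log2 ratio 1.90), and Ccl2 and Ccl7 had 455 CPM at day 16 and 89.6 CPM at day 10 (log2 ratio 2.35) and 453 CPM at day 16 and 51.9 CPM at day 10 (log2 ratio 3.13). Each of these was higher at day 16. All 18 measured members stood at 5% or more of the level in the highest other gate. Cxcl5, a neutrophil chemokine, had 1538 CPM at day 16 and 1316 CPM at day 10 (log2 ratio 0.23) and was not past 2-fold, and neither was Cxcl12, at 1102 CPM at day 16 and 813 CPM at day 10 (log2 ratio 0.44).

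Thinned to 3000 UMIs and leaving out 38 shallower barcodes at day 16 and 28 at day 10, Il6 was seen in 25.6% of 387 barcodes at day 16 (95% interval 21.3 to 30.2) and 4.26% of 681 at day 10 (2.87 to 6.06). The shares were 1.23% at day 16 and 0.266% at day 10 in neutrophils, read the same way, and 47.1% at day 16 and 15.7% at day 10 before thinning. Ccl11 was seen, thinned, in 28.2% of 387 barcodes at day 16 (95% interval 23.7 to 32.9) and 7.34% of 681 at day 10 (5.5 to 9.57). The shares were 0.313% at day 16 and 0.133% at day 10 in neutrophils, read the same way, and 53.2% at day 16 and 19.9% at day 10 before thinning. Cxcl13 was seen, thinned, in 14.5% of 387 barcodes at day 16 (95% interval 11.1 to 18.4) and 2.79% of 681 at day 10 (1.69 to 4.32). At day 16 95.3% of Cxcl13 UMIs lay in the 10% of barcodes with most. The alarmin Il33 had 292 CPM at day 16 and 140 CPM at day 10 (log2 ratio 1.06). Tslp, an epithelial and stromal alarmin, had 2.63 CPM at day 16 and 1.15 CPM at day 10 (log2 ratio 1.20) on 37 UMIs at day 16 and 19 at day 10. Receptors for these signals were steadier: of 16 measured stromal cytokine receptors 1 was past 2-fold, Csf2rb, at 0.79% of the level in another gate, and the interleukin-4 receptor Il4ra had 106 CPM at day 16 and 91.1 CPM at day 10 (log2 ratio 0.22).

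Interferon-stimulated genes had 12 of 16 measured members higher and a median of 1.32. Cxcl10 had 44.9 CPM at day 16 and 9.29 CPM at day 10 (log2 ratio 2.27), Ifi47, an interferon-γ induced GTPase, 36.3 CPM at day 16 and 10.8 CPM at day 10 (log2 ratio 1.75), and Isg15, a ubiquitin-like modifier, 76.5 CPM at day 16 and 29.5 CPM at day 10 (log2 ratio 1.38). Acute phase genes had 5 of 11 higher, with complement C3 at 923 CPM at day 16 and 288 CPM at day 10 (log2 ratio 1.68). NF-kB targets had 6 of 14 higher, Nfkbia among them with 389 CPM at day 16 and 163 CPM at day 10 (log2 ratio 1.26). Immediate-early and heat shock genes, which digestion of tissue can induce, had 6 of 16 higher in this gate, a median of 0.80, and their part in the other lists was not tested.

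Matrix genes showed little of this. Of 16 measured collagens, 0 were higher by 2-fold or more and 1 at least 2-fold lower, Col7a1, the anchoring fibril collagen, with 10.6 CPM at day 16, against 61.8 CPM at day 10 (log2 ratio -2.55, 95% interval -2.80 to -2.30). Col1a1 had 5394 CPM at day 16 and 7901 CPM at day 10 (log2 ratio -0.55) and Col3a1 had 9063 CPM at day 16 and 10436 CPM at day 10 (log2 ratio -0.20). Of 20 matrix glycoproteins and crosslinking enzymes, 0 were past 2-fold higher and 0 past 2-fold lower. Adamts5, a proteoglycan-cleaving protease, had 709 CPM at day 16 and 279 CPM at day 10 (log2 ratio 1.35), and Timp3, a protease inhibitor, 175 CPM at day 16 and 356 CPM at day 10 (log2 ratio -1.03). Proliferation genes had 0 of 15 past 2-fold higher and 0 past 2-fold lower.

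Contractile and myofibroblast genes were lower in 6 of 11 measured members. Acta2, smooth muscle actin, had 33.9 CPM at day 16 and 134 CPM at day 10 (log2 ratio -1.98), at 0.537% of the mural level at day 16 and 2.57% at day 10, and mural cells themselves were fewer at day 16. Lrrc15, a marker of TGF-β driven fibroblasts, had 53.5 CPM at day 16, against 131 CPM at day 10 (log2 ratio -1.29, 95% interval -1.41 to -1.17). Cdh11, a mesenchymal cadherin, had 274 CPM at day 16 and 553 CPM at day 10 (log2 ratio -1.01). Restricted to members above 5% of another gate's level, the counts were 0 higher and 3 lower among 6. Steady-state dermal fibroblast genes had 6 of 15 higher and 1 lower. Dpp4, a marker of fascial progenitor fibroblasts, had 69.6 CPM at day 16, against 20 CPM at day 10 (log2 ratio 1.80, 95% interval 1.62 to 1.98). Igfbp6 had 249 CPM at day 16 and 63.2 CPM at day 10 (log2 ratio 1.98). Crabp1, a retinoic acid binding protein of upper dermal and papilla fibroblasts, had 103 CPM at day 16, against 280 CPM at day 10 (log2 ratio -1.44, 95% interval -1.53 to -1.36). The mix of fibroblast subtypes was not resolved, so a change in subtype shares and a change within a subtype cannot be told apart here.

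**Figure D4:**
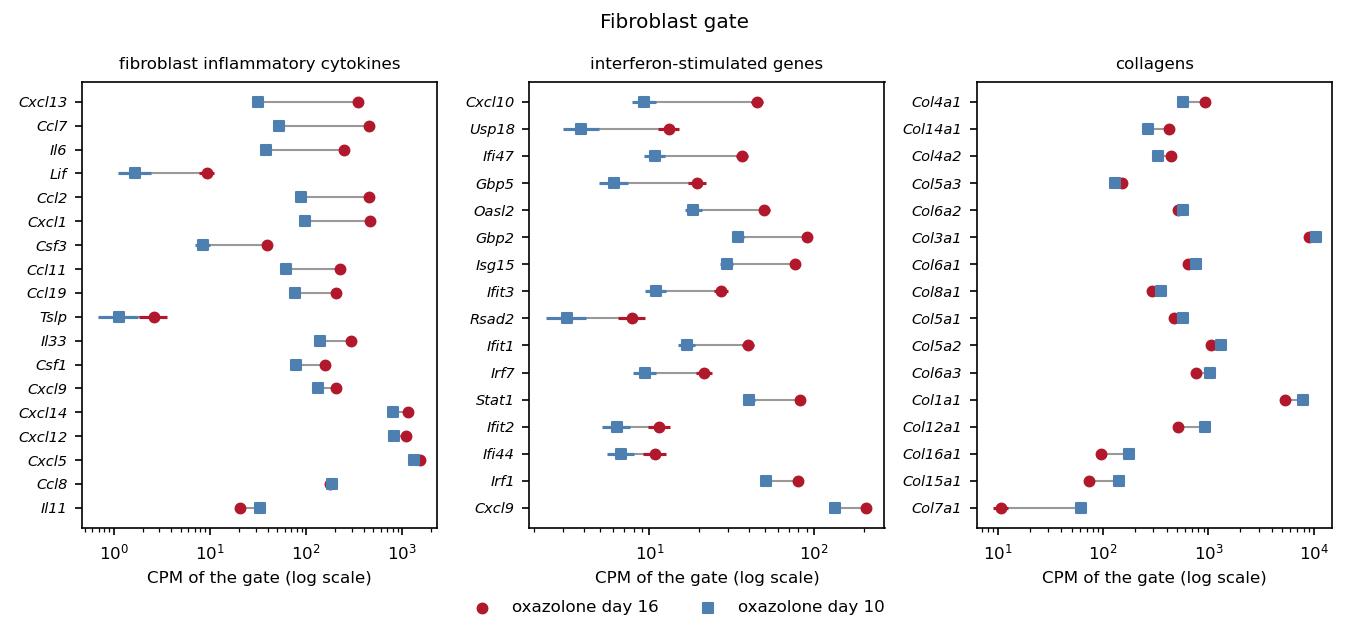
Level of each measured member of 3 lists in the fibroblast gate (x axis, CPM of the gate, log scale) in the oxazolone day 16 (red circles) and oxazolone day 10 (blue squares) libraries, with exact 95% Poisson intervals as thick bars. Cxcl13 stands at 345 CPM at day 16 and 31.4 CPM at day 10 and Il6 at 250 CPM at day 16 and 38.6 CPM at day 10, the interferon-stimulated genes all lie further right at day 16, and the collagen symbols nearly coincide apart from Col7a1 at 10.6 CPM at day 16 and 61.8 CPM at day 10.

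The highest ratios of the fibroblast gate by size were those of Ccl24, Arg1, Serpinb2, Ccl4 and Ccl3. Ccl24 had 646 UMIs at day 16 and 1 UMI at day 10 in this gate, 0.766% of the macrophage level at day 16, and Arg1, Ccl3 and Ccl4 stood at 0.774%, 0.322% and 0.322% of their highest other gate. Serpinb2, the plasminogen activator inhibitor PAI-2, had 39.9 CPM at day 16 and 1.63 CPM at day 10 (log2 ratio 4.61), at 60.6% of the neutrophil level. Neutrophil markers summed to 486 CPM at day 16 and 144 CPM at day 10 within the gate and macrophage markers to 138 CPM at day 16 and 143 CPM at day 10, and their part in these ratios was not tested. The lowest ratios were those of Spag16, Htr1f, Lypd1, Lrfn2 and Brinp3, between -5.24 and -3.41.

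Keratinocytes that remained at day 16 numbered 108 barcodes, against 1352 at day 10. Of the 14357 genes measured in the gate, 3.43% were higher by 2-fold or more and 10.9% lower by as much at day 16, and the median gene was at a log2 ratio of -0.16. With that median set to 0, 706 genes were past 2-fold higher and 1252 lower, against 492 and 1561 without the shift. Immediate-early genes were higher, in 8 of 16 measured members, with Fos at 814 CPM at day 16 and 249 CPM at day 10 (log2 ratio 1.71) and Atf3 at 325 CPM at day 16 and 68.2 CPM at day 10 (log2 ratio 2.25). After thinning to 3000 UMIs, Atf3 was seen in 27.7% of 101 barcodes at day 16 and 13.7% of 1314 at day 10. In neutrophils, read the same way, Atf3 was seen in 51.6% at day 16 and 24.3% at day 10, and their part was not tested. Of the epidermal growth factor receptor ligands 3 of 5 measured members were higher, among them Hbegf with 58.7 CPM at day 16 and 13.1 CPM at day 10 (log2 ratio 2.16). Thinned to 3000 UMIs, Hbegf was seen in 4.95% of 101 barcodes at day 16 (95% interval 1.63 to 11.2) and 3.04% of 1314 at day 10 (2.18 to 4.12), and in 8.89% at day 16 and 1.73% at day 10 of neutrophils, so the day 16 share is no higher than that background, and unthinned keratinocytes gave 19.4% at day 16 and 14.5% at day 10. Nrg1, neuregulin 1, had 371 CPM at day 16, against 59.6 CPM at day 10 (log2 ratio 2.64, 95% interval 2.53 to 2.74). Nrg1 was seen, thinned to 3000 UMIs and leaving out 7 shallower barcodes at day 16 and 38 at day 10, in 20.8% of 101 barcodes at day 16 (95% interval 13.4 to 30) and 7.53% of 1314 at day 10 (6.17 to 9.1). The shares were 9.02% at day 16 and 1.13% at day 10 in neutrophils, read the same way, and 41.7% at day 16 and 18.3% at day 10 before thinning. Late differentiation genes were lower in 3 cases. Krt1, a suprabasal keratin, had 0.578 CPM at day 16, against 29 CPM at day 10 (log2 ratio -5.65, 95% interval -8.70 to -3.79). Lor, the main protein of the cornified envelope, had 0.867 CPM at day 16, against 6.97 CPM at day 10 (log2 ratio -3.01, 95% interval -5.30 to -1.44), on 2 and 3 UMIs at day 16. Krt1 was seen, thinned, in 0% of 101 barcodes at day 16 (95% interval 0 to 3.59) and 0.761% of 1314 at day 10 (0.366 to 1.4). These intervals overlapped, and the unthinned shares were 1.85% at day 16 and 2.96% at day 10. On both days 100% of Krt1 UMIs lay in the 10% of barcodes with most. Of the 10 measured barrier genes 0 were past 2-fold higher and 3 lower, the third being Tgm3, a transglutaminase, at 0.867 CPM at day 16, against 6.19 CPM at day 10 (log2 ratio -2.83, 95% interval -5.12 to -1.27).

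Hair follicle genes of keratinocytes were mostly level, with 1 of 13 higher and 1 lower, and the stem cell marker Lgr5 at 254 CPM at day 16 and 159 CPM at day 10 (log2 ratio 0.68). Proliferation genes had 5 of 15 lower, with Ube2c at 50.9 CPM at day 16 and 129 CPM at day 10 (log2 ratio -1.35). Krt6a, a keratin of activated epidermis, had 147 CPM at day 16 and 179 CPM at day 10 (log2 ratio -0.28). Krt16, its partner, had 11.3 CPM at day 16 and 29.5 CPM at day 10 (log2 ratio -1.39), and 0.20 as the log2 ratio of mean CPM over barcodes, the opposite direction. The antimicrobial genes Lcn2 and Slpi had 154 CPM at day 16 and 27.5 CPM at day 10 (log2 ratio 2.49) and 43.6 CPM at day 16 and 5.43 CPM at day 10 (log2 ratio 3.01), at 12.8% and 2.27% of the neutrophil level at day 16. Fabp4, a fatty acid binding protein, and Sv2b, a vesicle protein, had 0 UMIs each at day 16 and 1469 and 839 UMIs at day 10, which makes them at least 51.4-fold and at least 29.3-fold lower at day 16 against a floor of 3 UMIs in the gate. The day 10 level of Fabp4 was 1.35% of the endothelial level, one that RNA from other cells could give, which was not tested. Neutrophil markers summed to 211 CPM at day 16 and 97.6 CPM at day 10 in this gate.

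The endothelial gate held 2244533 UMIs at day 16 and 2288283 at day 10, and a few adhesion and chemokine genes differed. Of the 9524 genes measured in the gate, 4.45% were higher by 2-fold or more and 5.86% lower by as much at day 16, and the median gene was at a log2 ratio of -0.10. With that median set to 0, 491 genes were past 2-fold higher and 447 lower, against 424 and 558 without the shift. Of the endothelial activation list, 4 of 15 measured members (of 19 listed) were higher at day 16 by 2-fold or more and 2 lower, with a median log2 ratio of 0.21. Vcam1, an adhesion receptor for lymphocytes and monocytes, had 78.4 CPM at day 16, against 25.8 CPM at day 10 (log2 ratio 1.60, 95% interval 1.17 to 2.06). The intervals of its share of barcodes overlapped, at 13.6% of 88 barcodes at day 16 (95% interval 7.25 to 22.6) and 8.13% of 123 at day 10 (3.97 to 14.4) after thinning to 3000 UMIs, 0.365% at day 16 and 0.465% at day 10 in neutrophils and 23.3% at day 16 and 22.3% at day 10 before thinning. In the day 16 gate 83.5% of Vcam1 UMIs lay in the 10% of barcodes with most. Sele and Selp, the selectins that slow rolling leukocytes, had 539 CPM at day 16 and 440 CPM at day 10 (log2 ratio 0.29) and 392 CPM at day 16 and 458 CPM at day 10 (log2 ratio -0.22), not past 2-fold. Ackr1, an atypical chemokine receptor of venules, had 138 CPM at day 16 and 289 CPM at day 10 (log2 ratio -1.07). Csf3 had 10.7 CPM at day 16 and 22.3 CPM at day 10 (log2 ratio -1.06). Cxcl1 had 77.5 CPM at day 16, against 3.06 CPM at day 10 (log2 ratio 4.66, 95% interval 3.59 to 6.00), at 13.3% of the level in the highest other gate, whereas Cxcl2 and Cxcl3 stood at 1.44% and 1.6% of the neutrophil level.

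By size, Foxp2, C3, Glis3 and Adamts5 followed Cxcl2 as the genes with the highest ratios in the endothelial gate. Glis3, a zinc finger transcription factor, had 651 CPM at day 16, against 51.1 CPM at day 10 (log2 ratio 3.67, 95% interval 3.40 to 3.95), and Foxp2, a forkhead factor, 296 CPM at day 16 and 12.2 CPM at day 10 (log2 ratio 4.60). Prox1 and Ccl21a mark lymphatic endothelium and were looked at after these values were seen. Prox1 was found, thinned to 3000 UMIs and leaving out 15 shallower barcodes at day 16 and 7 at day 10, in 26.1% of 88 barcodes at day 16 (95% interval 17.3 to 36.6) and 10.6% of 123 at day 10 (5.75 to 17.4). The shares were 0.0782% at day 16 and 0.0664% at day 10 in neutrophils, read the same way, and 32% at day 16 and 13.8% at day 10 before thinning. Ccl21a was found, thinned, in 28.4% of 88 barcodes at day 16 (95% interval 19.3 to 39) and 10.6% of 123 at day 10 (5.75 to 17.4). The shares were 0.861% at day 16 and 0.0664% at day 10 in neutrophils, read the same way, and 30.1% at day 16 and 10% at day 10 before thinning. The share of the gate with each of these lymphatic markers was thus larger at day 16, though the intervals of Prox1 overlapped and only those of Ccl21a did not. The part of lymphatic cells in the ratios above was not tested. Ifit3, an interferon-induced protein, had 4.9 CPM at day 16 and 29.3 CPM at day 10 (log2 ratio -2.58), the opposite direction from fibroblasts.

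**Figure D5:**
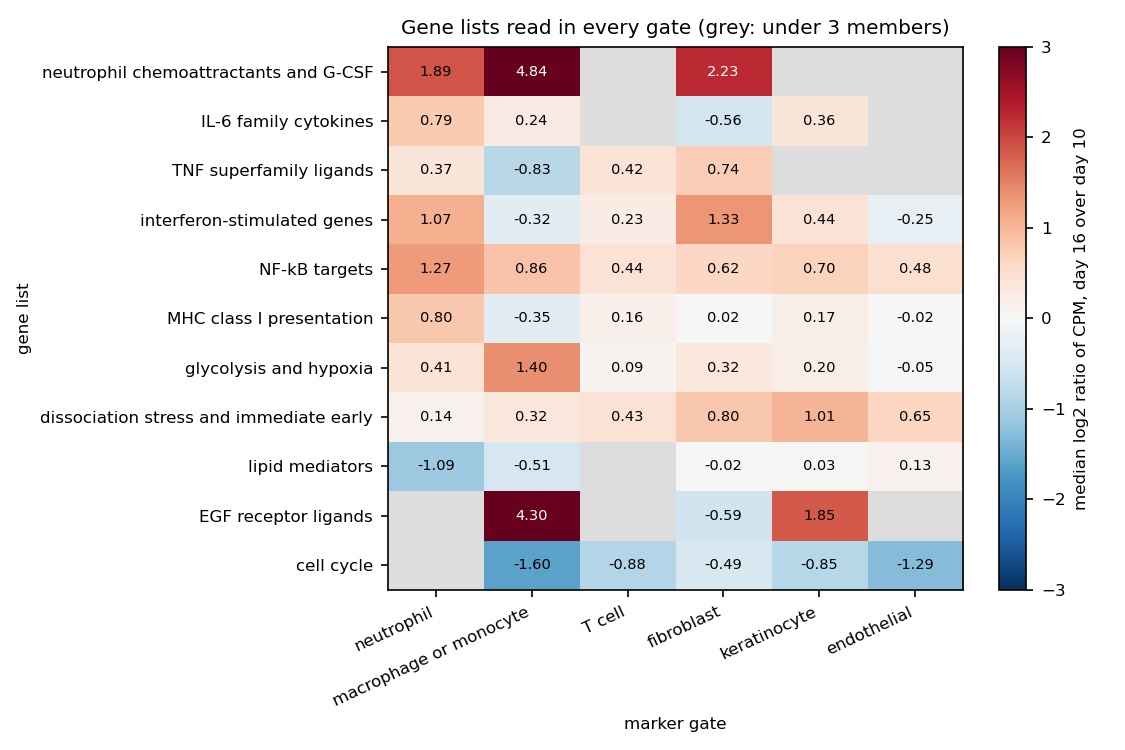
Median log2 ratio of CPM, oxazolone day 16 over oxazolone day 10 (colour and printed value), of each gene list read in every gate, over members at 5% or more of the level in the highest other gate; grey cells had fewer than 3 such members and the colour is saturated beyond 3. NF-kB targets have a positive median in all 6 gates (0.44 to 1.27), glycolysis and hypoxia genes are furthest from 0 in macrophages or monocytes at 1.40, and cell cycle genes are negative in all 5 gates with enough members.

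Over whole libraries, cell makeup and expression add together, and in these sums fewer cells of a type and less RNA per cell cannot be told apart. Of 20098 measured genes 9.37% were higher by 2-fold or more and 32.7% at least 2-fold lower at day 16, with a median log2 ratio of -0.64. Setting that median to 0 gave 3625 higher and 2400 lower, against 1883 and 6562. The 10 highest ratios among genes with at least 1000 UMIs were those of Il1a, Lsmem1, Ccl24, Mmp13, Arg1, Ccl7, Fam71f2, Ccl3, Il17a and Ccl2. Il1a had 271 CPM at day 16, against 4.7 CPM at day 10 (log2 ratio 5.85, 95% interval 5.73 to 5.97), and Il17a 11 CPM at day 16 and 0.446 CPM at day 10 (log2 ratio 4.63). Without the neutrophil gate, 7.88% of 19593 measured genes were higher and 21.7% lower by 2-fold or more, and Ccl24 and Arg1 were at 2881 and 3456 CPM at day 16, against 41.7 and 86.7 CPM at day 10. The 10 lowest of the whole library were Krt23, Mt4, Foxq1, Csta1, Sdr16c6, Krt75, Elmod1, Krt27, Fam13a and Krt35, of which 4 are keratins. Proliferation genes were lower in 14 of 15 members, with a median of -2.34. Within gates the same list had medians of -1.42 in macrophages or monocytes, -0.88 in T cells, -0.49 in fibroblasts, -0.85 in keratinocytes and -1.29 in endothelial cells.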

How the data were processed

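Single-cell RNA-seq counts were taken as deposited, as whole-number UMI counts per gene and barcode in matrices of called barcodes, made with Cell Ranger 8.0.0 (day 16) and 7.2.0 (day 10) per the file headers. Per the submitters' processing notes, Cell Ranger 8.0 and the mm10 genome were used, and the annotation release is not given in the sources used here. Between software versions, 1 gene (Pyy) had at least 30 UMIs in each 7.2.0 library and 0 in both 8.0.0 libraries of the series, and 0 genes the other way. The deposited matrices held 8199 barcodes at day 16 and 8708 at day 10, and 290 at day 16 and 407 at day 10 were left out by the limits of 300 genes and 15% mitochondrial UMIs. Counts were summed over the library or a gate and scaled to CPM with Python 3.11.15, numpy 2.4.6, scipy 1.17.1 and pandas 2.3.3. Intervals are Clopper-Pearson for shares, Poisson for sums and the exact conditional binomial for ratios. PCR and sampling error beyond counting is not covered. Genes that served as gate markers were left out of ratios within gates. No doublets were removed, and Scrublet in scanpy 1.11.5 was used for an alternative.

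Genes were named by rule. Whole libraries gave the 10 highest and 10 lowest ratios of genes that reached 1000 UMIs in either library, gates the 5 highest and 5 lowest of genes that reached 200, and each list up to 4 members by size of ratio. Ribosomal, mitochondrial, sex-linked, predicted, immunoglobulin and hemoglobin genes were passed over. Other list members were named for their known roles, with their values. The libraries, gates and all 45 gene lists were chosen with earlier results of these data known. Genes with a near-identical copy, such as Ccl3 and Ccl4 relatives, Gbp2 and the H2 genes, share reads to an extent that was not measured, and overlapping genes were not separated. The ratio computation was tested on simulated counts.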

Additional observations from a re-analysis of the deposited data

Results flagged for a closer look

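One gene list and 6 genes were past 2-fold in opposite directions in different gates. These differences between gates were not tested, since each gate has 1 library at each day. MHC class II genes had a median log2 ratio, day 16 over day 10, of 1.09 in T cells, -1.74 in macrophages or monocytes and -1.18 in keratinocytes. The T cell median was -0.65 without the highest Scrublet scores, and 0.40 over members at 5% or more of the level in another gate. The keratinocyte median was 0.59 with free RNA taken off at 5%, so the T cell and keratinocyte directions depend on the processing. H2-DMb1, a class II loading factor, was at 2.15 in T cells and -1.75 in macrophages or monocytes. Ifit3, an interferon-induced protein, was at 1.33 in fibroblasts, -2.01 in macrophages or monocytes and -2.58 in endothelial cells. Bnip3, the mitophagy protein whose promoter holds the hypoxia core, was at 2.50 in macrophages or monocytes and -1.64 in endothelial cells. Fos, an immediate-early transcription factor, was at 1.71 in keratinocytes and -1.74 in neutrophils. Fosb, its relative, was at 1.73 in keratinocytes, 1.27 in fibroblasts and -1.24 in neutrophils. Hpgds, a prostaglandin D synthase, was at 1.83 in neutrophils, -1.45 in macrophages or monocytes and -1.82 in T cells.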

How the results depend on the processing

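No paired analysis was possible because each day has 1 library. Of 13 summary results under their alternatives, 71 values stayed within the limits set for each and 25 did not. As log2 ratios of shares, with neutrophils out of the base, macrophages or monocytes were at 0.25, T cells at 0.71, fibroblasts at 0.08 and keratinocytes at -2.83; with a lead of 3 markers macrophages or monocytes were at -0.85, and with barcodes thinned to 1500 UMIs they were at -0.72 and fibroblasts at -0.40. Counts of genes past 2-fold follow the UMI minimum by construction. Without one, counts were 13015 for the whole library, 12284 for neutrophils, 8635 for macrophages or monocytes, 6442 for T cells, 6106 for fibroblasts, 8154 for keratinocytes and 4761 for endothelial cells. With at least 100 UMIs, they were 3472 for neutrophils, 745 for T cells, 1145 for fibroblasts, 1190 for keratinocytes and 424 for endothelial cells. Past 4-fold, there were 1182 in neutrophils, 939 in macrophages or monocytes, 285 in T cells, 406 in fibroblasts, 540 in keratinocytes and 171 in endothelial cells.

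Of 111 list medians, 847 values under alternatives stayed on the same side of 2-fold, 28 passed it newly, 36 dropped under it and 4 turned. For 550 gene ratios these numbers were 4029, 84, 105 and 17. A turn was counted only where the main value was past 2-fold, so changes of sign among smaller values are not in the counts of turns. Without the highest Scrublet scores, the T cell values of the class II list, H2-Aa, H2-Ab1 and Cd74 turned to -0.65, -2.06, -0.82 and -0.65, and Egf in keratinocytes to -1.54. With free RNA taken off at 5%, Cxcl3, Osm, Il1b and Hbegf in T cells were at -1.67, -0.97, -0.65 and -0.95, and Cxcl2 in fibroblasts at -5.24. Under the same setting the keratinocyte values of the monocyte chemokine list, the class II list, Ccl3, Ifit3 and Tnfaip3 were at -1.06, 0.59, -1.28, 0.59 and -3.31, and the endothelial values of the monocyte chemokine list and Ccl4 at -1.87 and -2.26. With a lead of 3 markers Tgfa in fibroblasts was at 0.08. As means over barcodes, Tbxas1 in fibroblasts, Krt16 in keratinocytes and Cxcl10 in endothelial cells were at -0.32, 0.20 and 0.63. The cause was not tested for these. The 5% level relative to other gates was an alternative chosen after seeing the data. Depth limits the genes measured, which were 9524 in the endothelial gate and 10005 in the T cell gate, against 14357 in the keratinocyte gate.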
